A study of Mus musculus with 2 samples.

Results

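The genes of 6 secreted growth factors and 2 receptors that carry signals between the mammary stroma and the branching epithelium were followed through pubertal and adult fibroblasts by single-cell RNA sequencing (scRNA-seq). The ligands were *Fgf2*, *Fgf7*, *Fgf10*, *Fgf18*, *Hgf* and *Nrg1*, and the receptors were *Fgfr1* and *Fgfr2*. These 8 genes were taken by symbol from the 33696 genes of the deposited gene list. Each stage had 1 library, labelled replicate 2, of stromal cells from 2 wild-type C57BL/6 females, at 4 weeks of age for puberty and at 9 weeks for virgin adults. The cells had been sorted as negative for lineage markers (CD31, CD45 and TER-119) and for CD24, so most endothelial, immune, red blood and epithelial cells had been taken out before sequencing. Neither group carried a transgene or received a treatment. With 1 library per stage, stage and library cannot be told apart, no test against the spread between animals was possible, and every interval below is a 95% interval for counting error only.

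Fibroblast growth factors (FGFs) bind FGF receptors together with heparan sulfate on the cell surface, and the receptors signal through the MAP kinase cascade. In the mammary gland, FGF10 and FGF7 are stromal ligands of the FGFR2 splice form found on epithelium, HGF acts on its receptor MET and drives tubule growth of mammary epithelium, and neuregulin 1 acts through the ERBB3 and ERBB4 receptors with ERBB2 as their partner. The counts come from the 3′ end of each transcript and are sums per gene, so they do not separate the splice forms of *Fgfr1*, *Fgfr2*, *Hgf* or *Nrg1*.

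Cells were kept with at least 500 genes, at most 10% mitochondrial unique molecular identifiers (UMIs, each a tag of 1 captured transcript) and at least 1 UMI of *Pdgfra*, a receptor of fibroblasts. This left 18878 of 21688 barcodes at puberty and 20999 of 23183 in the adult, with a median of 12187 and 11265 UMIs per cell. The 2 libraries shared 145 barcode sequences, 0.669% and 0.625% of their barcodes. At least 3 of the 5 fibroblast markers (*Dcn*, *Lum*, *Pdgfra*, *Col1a2*, *Col1a1*) had a UMI in 99.9% of the kept cells at puberty and 99.8% in the adult. Since every kept cell had *Pdgfra* by choice, that marker was met in advance, and these shares are no test of cell type. Markers of mural cells (pericytes or smooth muscle) summed to 131 CPM at puberty and 94.6 in the adult, where CPM are UMIs per 1000000 UMIs of the same sum, and 0 of the 7 mural markers were without a UMI. Endothelial markers summed to 44.4 and 21.6 CPM, Schwann cell markers to 27.3 and 28.5, skeletal muscle markers to 5.04 and 11.1, and epithelial, immune and adipocyte markers to at most 3.16 each. Cells with UMIs of at least 3 markers of another type made up 2.03% and 1.16% of the kept cells.

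Over all *Pdgfra* cells, the 8 genes split by stage. *Fgf10*, *Hgf* and *Nrg1* were at 1.90-fold to 2.09-fold their pubertal CPM in the adult library (*Nrg1* lower there when cells of each exclusive marker subset got equal weight), *Fgf2*, *Fgf18* and *Fgfr1* were at 0.537-fold to 0.588-fold, and *Fgf7* and *Fgfr2* were within 1.5-fold. All 8 passed the filter of a mean of 1 CPM over both libraries. The 3 members at least 1.5-fold higher in the adult stand beside 16.7% of all 13203 genes tested, and the 3 at least 1.5-fold lower beside 6.42%. The median log2 ratio of adult over puberty was 0.17 over all genes tested and 0.07 over the 8 members. With TMM scaling, which trims the genes that differ most, that median over all genes was 0.03, the split of all genes became 11.6% higher and 8.83% lower, and the same 6 members were past 1.5-fold in the same directions. With adult cells at the pubertal shares of the marker subsets, *Fgf10*, *Hgf* and *Fgfr1* stayed past 1.5-fold, beside 12.7% of all genes higher and 5.19% lower. With equal weight for each subset *Fgf10* alone stayed past it, beside 9.27% of all genes higher and 6.20% lower. *Nrg1* was then past it in the opposite direction.

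For 6 of the 8 genes a promoter was found in the RefSeq table of build GRCm38.p6; *Fgfr1* and *Nrg1* had no entry. Windows of 250 bases before the annotated start are printed for 4 genes because these genes moved as pairs between the libraries, *Fgf2* and *Fgf18* lower and *Fgf10* and *Hgf* higher in the adult. Capitals mark the GC box, GGGCGG on either strand. The windows are *Fgf2* at chr3:37348403-37348652 (+ strand), *Fgf18* at chr11:33147401-33147650 (− strand), *Fgf10* at chr13:118714449-118714698 (+ strand) and the second of the 2 *Hgf* starts at chr5:16553651-16553900 (+ strand).
Fgf2: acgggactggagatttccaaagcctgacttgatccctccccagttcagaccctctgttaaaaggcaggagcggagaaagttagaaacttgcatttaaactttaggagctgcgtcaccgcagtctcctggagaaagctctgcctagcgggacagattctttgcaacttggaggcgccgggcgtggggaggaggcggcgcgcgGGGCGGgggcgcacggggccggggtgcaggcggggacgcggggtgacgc
Fgf18: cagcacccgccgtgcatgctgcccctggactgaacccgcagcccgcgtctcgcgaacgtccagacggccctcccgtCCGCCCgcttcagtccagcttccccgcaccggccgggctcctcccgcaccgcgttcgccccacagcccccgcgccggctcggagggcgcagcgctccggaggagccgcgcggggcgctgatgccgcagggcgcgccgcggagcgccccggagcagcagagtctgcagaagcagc
Fgf10: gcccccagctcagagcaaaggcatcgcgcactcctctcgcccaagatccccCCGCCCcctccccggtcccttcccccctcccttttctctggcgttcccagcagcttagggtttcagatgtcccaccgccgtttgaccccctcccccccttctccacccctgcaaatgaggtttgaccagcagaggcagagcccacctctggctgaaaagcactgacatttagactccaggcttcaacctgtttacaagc
Hgf: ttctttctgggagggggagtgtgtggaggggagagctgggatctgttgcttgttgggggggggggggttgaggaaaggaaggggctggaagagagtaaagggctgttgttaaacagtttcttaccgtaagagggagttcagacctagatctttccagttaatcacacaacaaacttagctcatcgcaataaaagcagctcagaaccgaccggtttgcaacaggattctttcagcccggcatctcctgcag

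Both lower genes had GC-rich windows, 62.4% for *Fgf2* and 77.2% for *Fgf18*, against a median of 52.4% over 32851 promoters. *Fgf10* was at 61.2% and the *Hgf* windows at 50.8% and 51.2%. A single GC box lay 49 bases before the start in *Fgf2*, 174 bases before it on the opposite strand in *Fgf18*, and 199 bases before it on the opposite strand in *Fgf10*. The motif was found in 32.7% of all windows of this length, and these letters were not in the windows of *Hgf*, *Fgf7* or *Fgfr2*. The TATA box, searched as TATAAA and present in 12.4% of all windows, was not found in any of the 7 windows of the members. The CCAAT box, in 33.8% of all windows, was found in *Fgf7* alone, 53 bases before the start. The GC box was thus present both in genes that were lower in the adult and in one that was higher.

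**Figure D1:**
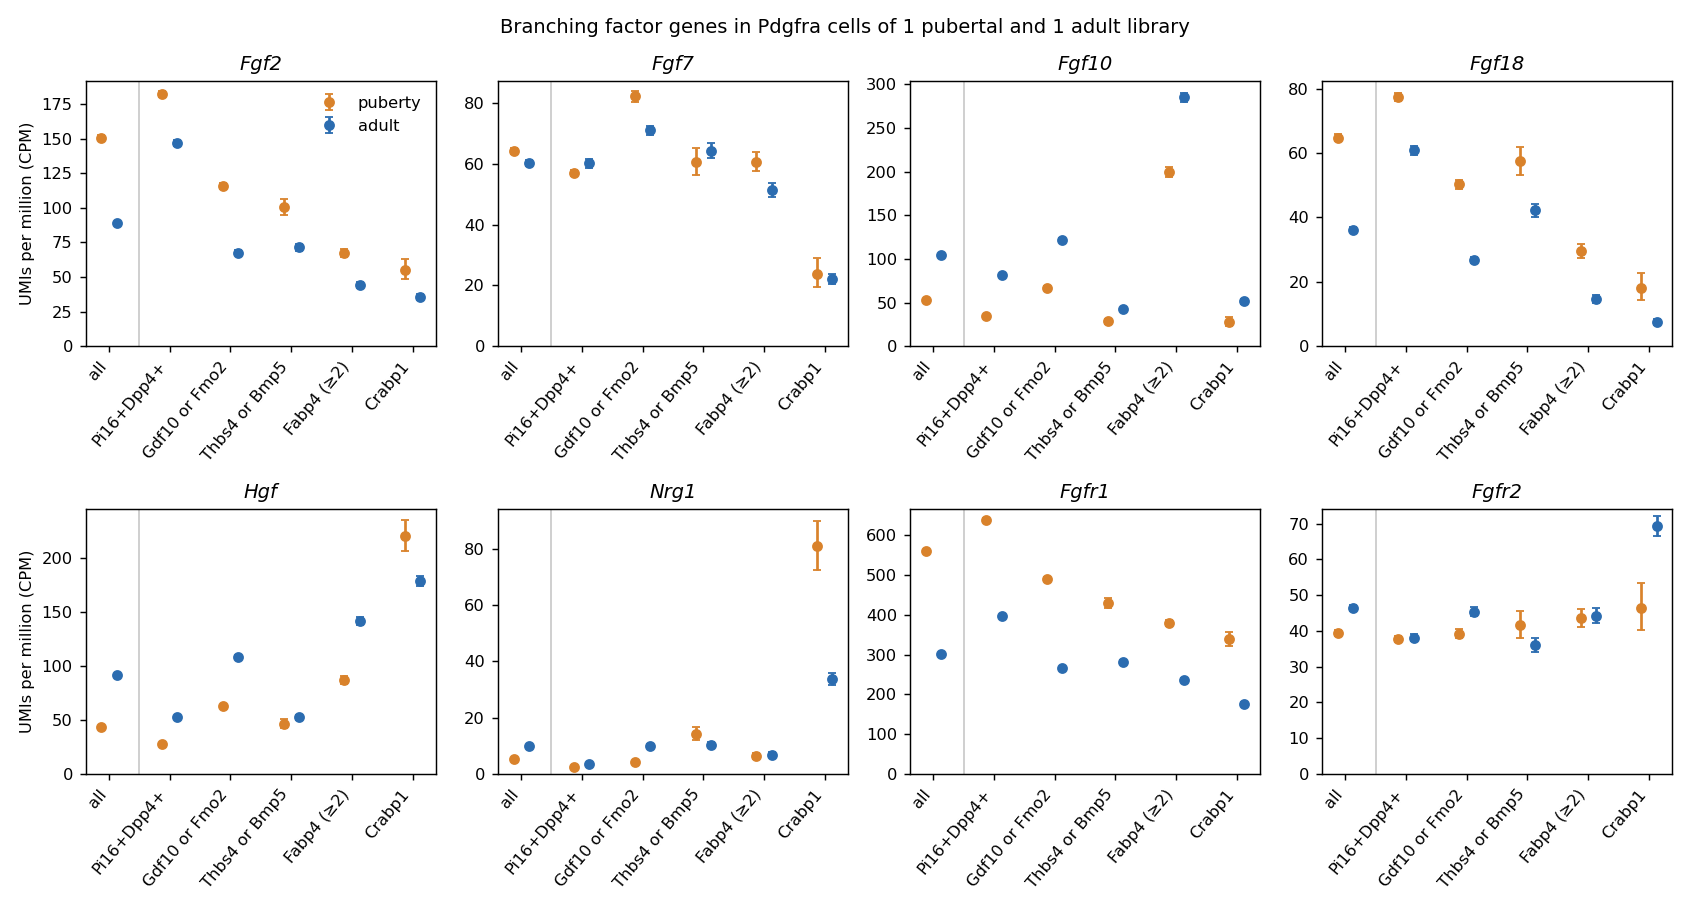
CPM (y axis, from 0) of each gene in all *Pdgfra* cells and in 5 overlapping subsets (x axis), at puberty (orange) and in the adult (blue); points are summed counts of 1 library and bars are exact 95% Poisson intervals. *Fgf10* peaks in *Fabp4* cells at 200 and 285 CPM, *Hgf* and *Nrg1* peak in *Crabp1* cells, and *Fgf2*, *Fgf18* and *Fgfr1* peak in Pi16+Dpp4+ cells.

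The *Pdgfra* cells were also divided by marker UMIs into 5 overlapping subsets. Cells with both *Pi16* and *Dpp4*, genes the study ties to mesenchymal progenitors, made up 74.1% of *Pdgfra* cells at puberty (13983 cells) and 42.2% in the adult (8853). Cells with *Gdf10* or *Fmo2*, tied to adipogenesis-regulatory fibroblasts, made up 39.5% and 47.9%. Cells with *Thbs4* or *Bmp5*, tied to lobular-like fibroblasts, were 4.91% and 14.8%, cells with at least 2 UMIs of the fatty acid carrier gene *Fabp4* were 9.42% and 12.2%, and cells with the retinoic acid carrier gene *Crabp1* were 1.53% (289 cells) and 12.7% (2672). Median depth ran from 11860 to 13850 UMIs over these subsets at puberty and from 10588 to 13524 in the adult. The subsets rest on 1 or 2 markers each and are not clusters.

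*Fgf10* (ENSMUSG00000021732), the stromal ligand needed for mammary bud and duct growth, had its highest CPM among the subsets in *Fabp4* cells. Over all *Pdgfra* cells it stood at 53.0 CPM (52.1 to 54.0) at puberty, against 105 (104 to 106) in adult cells, which gave an adult over puberty ratio of 1.98 (1.94 to 2.02). In *Fabp4* cells it reached 200 CPM at puberty and 285 in the adult, 5.65-fold and 3.92-fold the level of the other *Pdgfra* cells. These cells, with 10.8% and 15.1% of all UMIs, held 40.6% and 41.1% of those of *Fgf10*. The larger, overlapping subset of *Gdf10* or *Fmo2* cells held more *Fgf10* UMIs, 6633 and 15400 against 5093 and 10672 in *Fabp4* cells. The next subset was *Gdf10* or *Fmo2* cells at 67.1 and 122 CPM. At puberty the Pi16+Dpp4+ cells (34.9 CPM) followed, and *Thbs4* or *Bmp5* cells (28.5) and *Crabp1* cells (28.3) came last with overlapping intervals. In the adult the order was the same down to Pi16+Dpp4+ cells at 81.4 CPM, then *Crabp1* cells at 51.4 and *Thbs4* or *Bmp5* cells at 42.1.

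The adult level of *Fgf10* was above the pubertal level in 5 of 5 overlapping subsets, by 1.43-fold in *Fabp4* cells and by up to 2.33-fold in Pi16+Dpp4+ cells. In cells of the *Thbs4* or *Bmp5* subset alone the ratio was 1.27 (0.903 to 1.82), within counting error of 1. The share of cells with an *Fgf10* UMI, after each cell was thinned to 3000 UMIs, was 11.3% at puberty and 18.0% in the adult, and without thinning 28.4% and 37.8%. Within *Fabp4* cells the thinned share was 34.9% and 42.1%. The counts were uneven, since the 1% of cells with most *Fgf10* held 21.1% and 20.1% of its UMIs, and single cells reached 152 and 124 UMIs. Mural markers were also highest in *Fabp4* cells, at a sum of 376 and 190 CPM with at least 3 of the 7 markers in 7.76% and 3.60% of the cells. Cells with at least 3 mural markers and no *Pdgfra* UMI were at 0.952 and 1.71 CPM of *Fgf10*, below every subset of *Pdgfra* cells. Without the 142 pubertal and 107 adult *Fabp4* cells that carried at least 3 markers of another type, *Fgf10* was at 216 and 294 CPM in the subset, 6.09-fold and 4.04-fold the other cells.

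*Hgf* (ENSMUSG00000028864), hepatocyte growth factor, had the highest stage ratio of the 8 over all cells. It stood at 43.8 CPM (42.9 to 44.6) at puberty, against 91.6 (90.4 to 92.8) in adult cells, which gave a ratio of 2.09 (2.04 to 2.14). *Crabp1* cells led at both stages with 220 CPM (206 to 235) and 178 (174 to 183), which was 5.43-fold and 2.27-fold the other cells. *Fabp4* cells were next with 87.1 and 142 CPM, then *Gdf10* or *Fmo2* cells with 62.3 and 108. *Thbs4* or *Bmp5* cells had 46.4 and 52.4 CPM and Pi16+Dpp4+ cells 27.5 and 52.3, and in the adult the intervals of those last 2 subsets overlapped. *Hgf* was higher in the adult in 4 of 5 subsets, by 1.13-fold in *Thbs4* or *Bmp5* cells (0.439 in cells of that subset alone, 0.345 to 0.561) to 1.90-fold in Pi16+Dpp4+ cells, and lower in *Crabp1* cells at a ratio of 0.810 (0.756 to 0.869).

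The thinned share of *Hgf* cells was 6.47% at puberty and 14.0% in the adult, and the unthinned share 14.6% and 29.1%. *Crabp1* cells, with 1.79% and 13.1% of all UMIs, held 9.01% and 25.5% of those of *Hgf*. The top 1% of cells carried 42.3% and 32.0% of *Hgf* UMIs. When adult cells were weighted to the pubertal shares of the subsets, the *Hgf* ratio was 1.62, and with equal weight for every exclusive subset it was 1.25.

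*Nrg1* (ENSMUSG00000062991, with no UMI on the second identifier of that symbol, ENSMUSG00000118541) encodes neuregulin 1 and was the rarest of the 8. It was counted at 5.23 CPM (4.94 to 5.53) at puberty, against 9.95 (9.56 to 10.3) in adult cells, which gave a ratio of 1.90 (1.78 to 2.04) that turned to 0.517 with equal weight for every exclusive subset. Only 2.53% of pubertal and 3.20% of adult cells had an *Nrg1* UMI, 0.960% and 1.64% after thinning, and the top 1% of cells carried 76.7% and 73.3% of its UMIs. *Crabp1* cells led again, at 80.9 CPM (72.6 to 89.9) and 33.8 (31.8 to 35.8), which was 21.0-fold and 5.32-fold the other *Pdgfra* cells. The 289 pubertal *Crabp1* cells thus held 27.7% of the *Nrg1* UMIs and the 2672 adult ones 44.5%, beside 1.79% and 13.1% of all UMIs. At puberty *Thbs4* or *Bmp5* cells (14.3 CPM) came next, before *Fabp4* (6.35), *Gdf10* or *Fmo2* (4.18) and Pi16+Dpp4+ cells (2.64). In the adult *Thbs4* or *Bmp5* cells (10.4) and *Gdf10* or *Fmo2* cells (10.0) had overlapping intervals, above *Fabp4* (6.87) and Pi16+Dpp4+ cells (3.49).

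Within the subsets the stage difference of *Nrg1* went both ways. It was lower in the adult in *Crabp1* cells at a ratio of 0.417 (0.369 to 0.473) and in *Thbs4* or *Bmp5* cells, and higher in *Gdf10* or *Fmo2* cells at a ratio of 2.40 and in Pi16+Dpp4+ cells. In *Fabp4* cells the levels of the libraries were within counting error of each other. These calls changed in cells of exactly 1 subset, with ratios of 0.877 (0.694 to 1.10) for Pi16+Dpp4+ and 2.10 (1.52 to 2.93) for *Fabp4*. The other subsets kept their direction there. With adult cells at pubertal subset shares the ratio over all cells was 1.22. The *Nrg1* and *Hgf* signals lay partly in the same cells: of thinned cells with *Nrg1*, 15.2% also had *Hgf* at puberty (10.2 to 21.3) against 6.47% of all cells, and 18.7% in the adult (14.7 to 23.3) against 14.0%. Inside the *Crabp1* subset, *Hgf* was found in 57.8% of pubertal *Nrg1* cells (44.8 to 70.1) and 45.3% of the rest (38.7 to 52.1), and in 42.9% against 46.4% in the adult, with overlapping intervals at both stages.

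*Fgf2* (ENSMUSG00000037225), basic FGF, which leaves cells without a signal peptide, showed the opposite pattern. It stood at 151 CPM (149 to 152) at puberty, against 88.7 (87.5 to 89.9) in adult cells, which gave a ratio of 0.588 (0.578 to 0.598). Pi16+Dpp4+ cells led with 182 and 147 CPM, 3.89-fold and 4.46-fold the other cells. With 76.9% and 48.8% of all UMIs, they held 92.8% and 81.0% of those of *Fgf2*. The remaining subsets followed in the order *Gdf10* or *Fmo2* (116 CPM), *Thbs4* or *Bmp5* (101), *Fabp4* (67.3) and *Crabp1* (55.4) at puberty. In the adult *Gdf10* or *Fmo2* cells (67.7) and *Thbs4* or *Bmp5* cells (71.4) had overlapping intervals, above *Fabp4* (44.1) and *Crabp1* cells (35.6).

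The *Fgf2* level was lower in the adult in 5 of 5 overlapping subsets, at ratios from 0.585 in *Gdf10* or *Fmo2* cells to 0.808 in Pi16+Dpp4+ cells. The overlap changed with stage, since 55.9% of pubertal and 30.4% of adult *Gdf10* or *Fmo2* cells were also Pi16+Dpp4+ cells. In cells of exactly 1 subset the ratios were 0.897 for Pi16+Dpp4+, 0.734 for *Gdf10* or *Fmo2* and 0.647 for *Fabp4*. They were 0.968 (0.784 to 1.20) for *Thbs4* or *Bmp5* and 0.788 (0.542 to 1.18) for *Crabp1*, with intervals that held 1. The thinned share of positive cells was 30.9% at puberty and 18.3% in the adult, and the unthinned share 62.4% and 42.0%. With adult cells at pubertal subset shares the ratio was 0.807, inside 1.5-fold. The counts of *Fgf2* were spread over many cells, with 7.52% and 10.8% of its UMIs in the top 1% of cells.

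*Fgf18* (ENSMUSG00000057967), a secreted FGF best known from skeletal and lung growth, followed *Fgf2*. It stood at 64.7 CPM (63.7 to 65.7) at puberty, against 36.1 (35.4 to 36.9) in adult cells, which gave a ratio of 0.558 (0.544 to 0.573), and 0.761 at pubertal subset shares. Pi16+Dpp4+ cells led with 77.4 and 60.9 CPM, 3.45-fold and 4.87-fold the other cells, and *Crabp1* cells were last with 18.2 and 7.55 CPM. *Thbs4* or *Bmp5* cells stood second at 57.5 and 42.2 CPM, ahead of *Gdf10* or *Fmo2* cells at 50.2 and 26.7 and *Fabp4* cells at 29.6 and 14.7. All 5 overlapping subsets were lower in the adult, from 0.416 in *Crabp1* cells to 0.786 in Pi16+Dpp4+ cells. In cells of the *Crabp1* subset alone, with 4 and 12 *Fgf18* UMIs, the interval of the ratio held 1 (0.106 to 1.48). The thinned share was 16.4% and 8.61%, and the unthinned share 45.3% and 24.5%. Of thinned *Fgf2* cells, 19.3% had *Fgf18* at puberty and 14.0% in the adult, against 16.4% and 8.61% of all cells, whereas of *Hgf* cells 11.1% and 4.11% did.

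*Fgf7* (ENSMUSG00000027208), keratinocyte growth factor, was the ligand with the smallest stage difference over all *Pdgfra* cells. It stood at 64.2 CPM (63.2 to 65.3) at puberty, against 60.3 (59.3 to 61.3) in adult cells, which gave a ratio of 0.939 (0.918 to 0.960). *Gdf10* or *Fmo2* cells led with 82.1 and 70.9 CPM, 1.60-fold and 1.44-fold the other cells, and *Crabp1* cells were lowest with 23.8 and 22.0 CPM. The other 3 subsets lay between 56.9 and 60.6 CPM at puberty, with overlapping intervals, and between 51.3 and 64.2 in the adult. The ratios within overlapping subsets ran from 0.846 in *Fabp4* cells to 1.06 in *Thbs4* or *Bmp5* cells. They were wider apart in exclusive cells, at 0.662 (0.590 to 0.743) in cells of no subset and 0.787 for *Gdf10* or *Fmo2* alone. For *Crabp1* alone the ratio was 2.92, from 6 pubertal UMIs. The thinned share was 16.0% and 14.6%, and the unthinned share 41.8% and 36.5%.

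*Fgfr1* (ENSMUSG00000031565), the FGF receptor typical of mesenchyme, was found in most cells. It stood at 561 CPM (558 to 564) at puberty, against 301 (299 to 304) in adult cells, which gave a ratio of 0.537 (0.533 to 0.542). Pi16+Dpp4+ cells led with 639 and 396 CPM, 2.13-fold and 1.88-fold the other cells, and *Crabp1* cells were last with 339 and 176 CPM. At puberty the subsets between them ran in the order *Gdf10* or *Fmo2* (490), *Thbs4* or *Bmp5* (429) and *Fabp4* (380), and in the adult *Thbs4* or *Bmp5* cells (282) stood before *Gdf10* or *Fmo2* cells (266) and *Fabp4* cells (236). The level was lower in the adult in 5 of 5 overlapping subsets, at ratios from 0.520 in *Crabp1* cells to 0.657 in *Thbs4* or *Bmp5* cells. In cells of exactly 1 subset the ratios ran from 0.589 for *Crabp1* to 0.832 for *Thbs4* or *Bmp5*. At pubertal subset shares the ratio was 0.644, still past 1.5-fold, and with equal weights 0.697. The thinned share of positive cells was 70.0% and 51.3%, the unthinned share 93.5% and 82.6%.

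*Fgfr2* (ENSMUSG00000030849), the receptor whose epithelial splice form binds FGF10 and FGF7, stood at 39.4 CPM (38.6 to 40.2) at puberty, against 46.4 (45.6 to 47.3) in adult cells, which gave a ratio of 1.18 (1.15 to 1.21). At puberty the 5 subsets lay between 37.8 and 46.5 CPM, and the interval of each overlapped that of its neighbour in the order. Among the adult subsets *Crabp1* cells were highest at 69.3 CPM (66.5 to 72.2), 1.61-fold the other cells, above *Gdf10* or *Fmo2* (45.4) and *Fabp4* cells (44.2). The level was not particular to them, since adult cells in no subset were at 70.1 CPM. Adult cells of the *Crabp1* subset alone were at 81.4 CPM. *Crabp1* cells also had the highest stage ratio of *Fgfr2*, 1.49 (1.29 to 1.73), and *Thbs4* or *Bmp5* cells the lowest, 0.862 (0.777 to 0.958). The thinned share was 10.9% and 12.9%, and the unthinned share 34.1% and 36.5%.

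**Figure D2:**
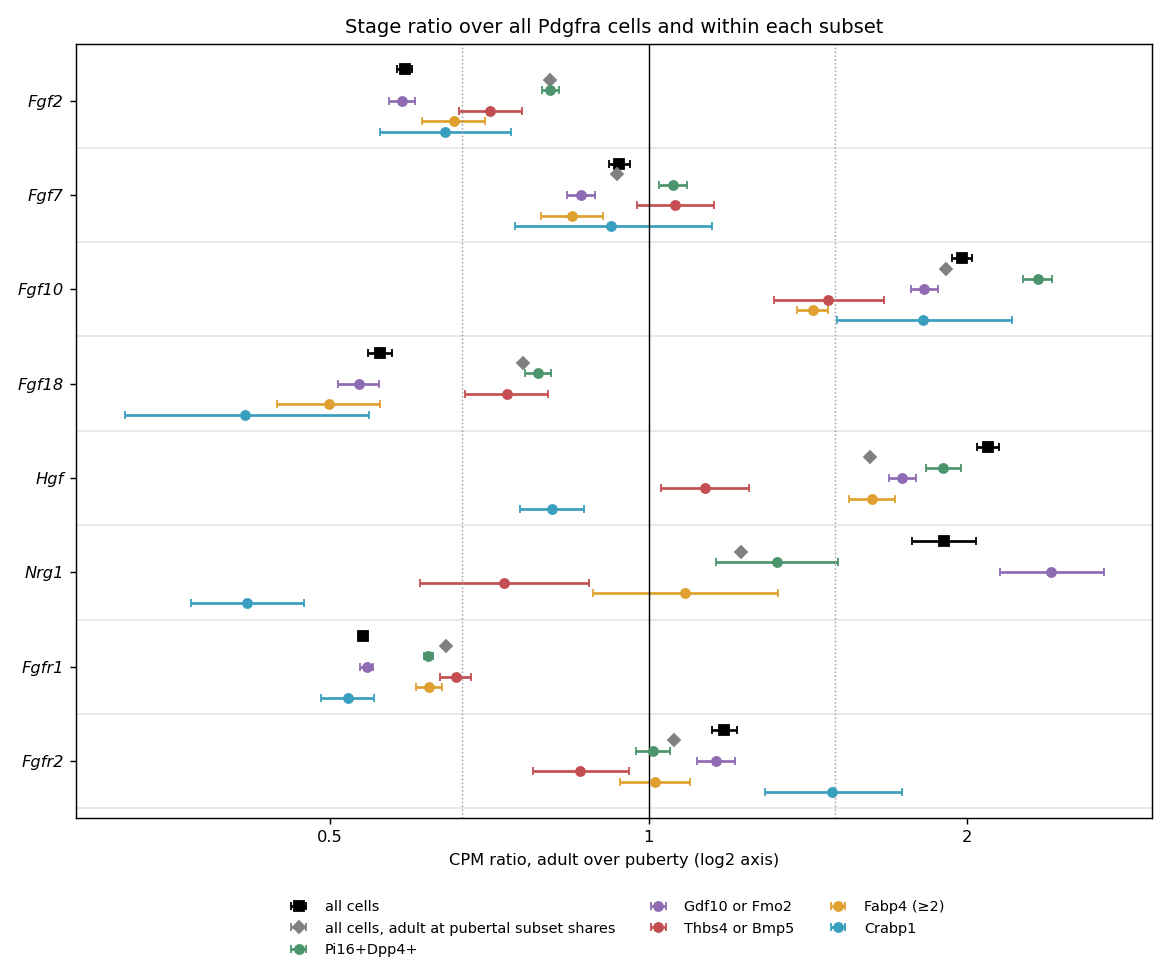
Ratio of adult over pubertal CPM (x axis, log2 scale) for each gene over all *Pdgfra* cells (black), with adult cells weighted to pubertal subset shares (grey, no interval), and within each overlapping subset (colours); bars are 95% counting intervals and dotted lines mark 1.5-fold. *Fgf10* lies above 1 and *Fgf2*, *Fgf18* and *Fgfr1* below 1 in 5 of 5 overlapping subsets. In cells of exactly 1 subset (not drawn), some intervals of *Fgf2*, *Fgf10* and *Fgf18* held 1. *Nrg1* runs from 0.417 in *Crabp1* cells to 2.40 in *Gdf10* or *Fmo2* cells and over all cells is 0.517 with equal subset weights (not drawn).

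Read by subset, 6 of the 8 genes were set apart in Pi16+Dpp4+ cells, and *Fgf7* and *Fgfr2* were not. In Pi16+Dpp4+ cells, *Fgf2*, *Fgf18* and *Fgfr1* were at least 1.5-fold higher than in the other *Pdgfra* cells in both libraries (3 of 8, beside 7.54% of all genes; with exclusive subsets *Fgfr1* was no longer past 1.5-fold), and *Fgf10*, *Hgf* and *Nrg1* at least 1.5-fold lower (3 of 8, beside 11.5%). *Fabp4* cells were higher for *Fgf10* and *Hgf* (2 of 8, beside 4.57%; with exclusive subsets *Fgf10* and *Nrg1*) and lower for *Fgf2* and *Fgf18* (2 of 8, beside 6.61%). *Crabp1* cells were higher for *Hgf* and *Nrg1* (2 of 8, beside 9.28%) and lower for *Fgf2*, *Fgf7*, *Fgf10*, *Fgf18* and *Fgfr1* (5 of 8, beside 11.7%). *Gdf10* or *Fmo2* cells were higher for 0 of 8 (beside 2.89%) and lower for *Fgf2* alone (beside 2.36%), and *Thbs4* or *Bmp5* cells higher for 0 of 8 (beside 3.56%) and lower for *Fgf10* alone (beside 3.28%). The 3 members that were higher in Pi16+Dpp4+ cells are the 3 that were lower in the adult library, where those cells had the smaller share, and the 3 that were lower in them are the 3 that were higher in the adult. Within Pi16+Dpp4+ cells the adult over puberty ratios were 0.808 for *Fgf2*, 0.786 for *Fgf18* and 0.620 for *Fgfr1*. They were 2.33 for *Fgf10*, 1.90 for *Hgf* and 1.32 for *Nrg1*. The cause of the match was not tested.

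**Figure D3:**
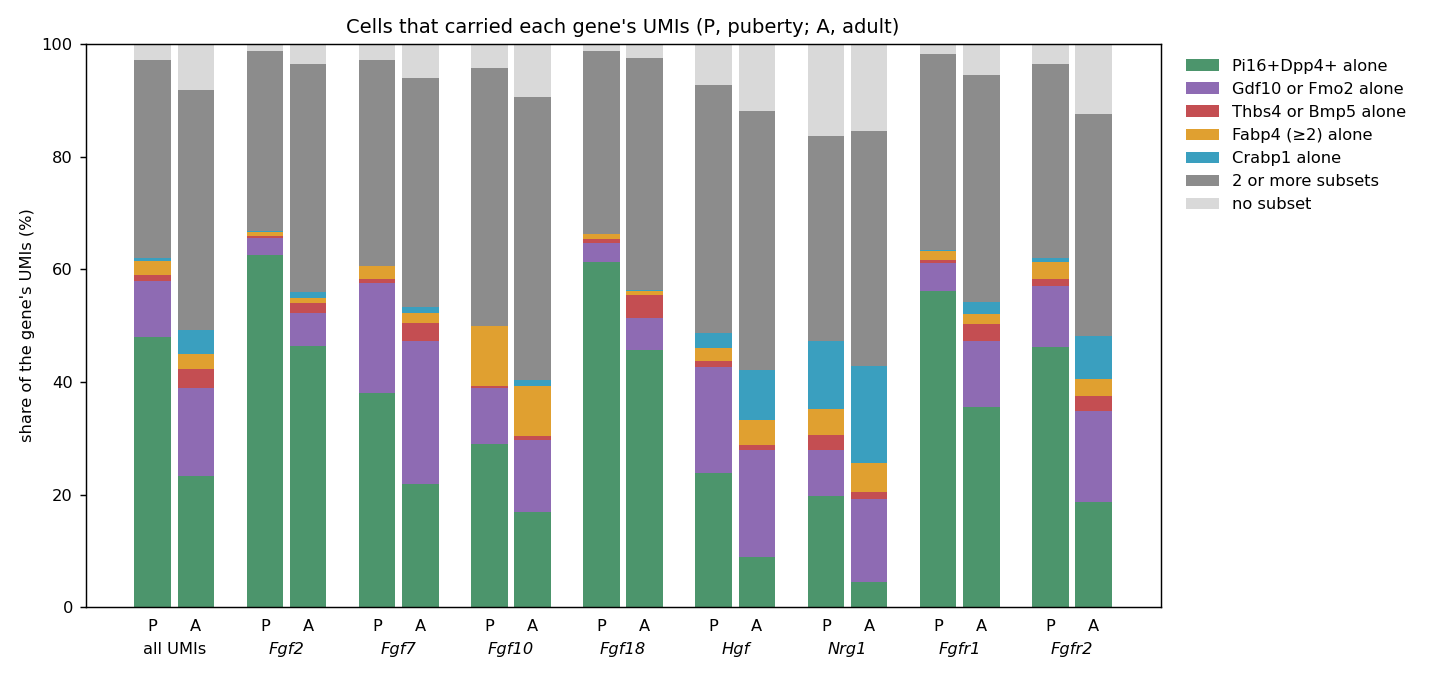
Share of each gene's UMIs (y axis, %) carried by cells of exactly 1 subset, of 2 or more subsets (dark grey) or of none (light grey), at puberty (P) and in the adult (A), with the share of all UMIs at the left. Pi16+Dpp4+ cells of no other subset (green) held 48.0% of all UMIs at puberty and 23.3% in the adult, but 23.8% and 8.98% of *Hgf* UMIs.

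Cells placed in exactly 1 subset gave the same leading cells. *Fgf10* was at 221 CPM at puberty and 364 in the adult in cells of the *Fabp4* subset alone, and *Hgf* at 214 and 184 and *Nrg1* at 119 and 39.0 in cells of the *Crabp1* subset alone, of which there were 100 and 1042. Cells in no subset, 3.74% at puberty and 11.9% in the adult, also carried these ligands, with *Fgf10* at 82.8 and 121 CPM, *Hgf* at 114 and 132, and *Nrg1* at 31.1 and 18.6. After thinning, 39.3% of pubertal and 44.2% of adult cells had no UMI of any of the 6 ligands, 42.4% and 39.4% had exactly 1 ligand, and 15.5% and 13.7% had 2.

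Over the 12 sums formed by the 5 exclusive subsets and the cells in none of each library, the members' log2 levels were compared in pairs. Pearson's r was 0.94 for *Fgf2* with *Fgfr1*, 0.84 for *Fgf2* with *Fgf18*, 0.83 for *Hgf* with *Nrg1* and 0.83 for *Hgf* with *Fgfr2*. It was −0.84 for *Fgf18* with *Hgf* and −0.88 for *Fgf18* with *Fgfr2*. *Fgf10* was not close to any other member, with its highest r at 0.53, to *Fgf7*. Among 8442 genes compared, those most like *Fgf2* were *Limch1*, *Adgrg2* and *Lurap1l* (r = 0.99, 0.99 and 0.98), and those most like *Fgf18* were *Fndc1*, *Man1a* and *Stxbp6* (0.99, 0.98 and 0.98). *Fgf7* was nearest to *Ntrk2*, *Amy1* and *Gsn* (0.97, 0.96 and 0.96), and *Fgf10* to *Tmem106a*, *P2rx4* and *Adar* (0.95, 0.94 and 0.93). *Hgf* was nearest to *Kera*, *Actr8* and *Trim3* (0.94, 0.93 and 0.93), and *Nrg1* to *Lrrc15*, *Top3a* and *Rbbp4* (0.97, 0.97 and 0.96). *Fgfr1* was nearest to *Samd4b*, *Rcan1* and *Kif21a* (0.96, 0.96 and 0.95), and *Fgfr2* to *Larp4*, *Carm1* and *Hipk2* (0.95, 0.94 and 0.94). Some of these genes varied little over the 12 sums, such as *Actr8* from 12.4 to 20.5 CPM and *Adar* from 11.8 to 27.5. The sum of pubertal cells of the *Crabp1* subset alone rests on 100 cells, so counting error can enter r. The 12 sums come from 2 libraries and share their depth, so these values describe likeness and carry no test.

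Cells without a *Pdgfra* UMI but with at least 3 markers of another type carried some of the members. The 633 pubertal and 388 adult cells with mural markers had a median of 6416 and 6204 UMIs. *Hgf* had a UMI in 0.948% and 2.32% of them, *Nrg1* in 0.474% at puberty and in 0 of 388 in the adult, where the limit of 3 counts allows up to 0.773% of cells with a UMI at this depth, and *Fgf7* in 2.21% and likewise 0 of 388. *Fgf18* was found in 9.00% and 3.09% of mural cells. After thinning, *Fgfr2* was in 9.98% (7.72 to 12.6) and 10.1% (6.99 to 13.9) of mural cells, shares that overlap those of *Pdgfra* cells, and *Fgfr1* in 33.9% and 28.6%. The 60 pubertal and 48 adult cells with Schwann cell markers, at a median of 3334 and 2559 UMIs, had 35.4 and 80.9 CPM of *Fgf7* (15.3 to 69.8 and 40.4 to 145) and 44.3 and 51.5 CPM of *Fgf2*, from at most 11 UMIs each. The adult library also held 28 cells with at least 3 epithelial markers and no *Pdgfra* UMI, which had 363 CPM of *Nrg1* (309 to 425, 157 UMIs in 12 cells) and 349 CPM of *Fgfr2* (296 to 410). Of these 28 cells, 25 had *Epcam*, 22 the basal keratin *Krt5*, 21 *Krt14*, 16 *Krt8* and 15 *Krt18*. By CPM *Krt18* (1570) and *Krt8* (964) stood above *Krt14* (412) and *Krt5* (192). The smooth muscle gene *Myh11* was in 22, the fibroblast marker *Dcn* in 23 and the Schwann cell marker *Sox10* in 13. The markers were thus mixed, and no epithelial type was assigned to these cells.

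**Figure D4:**
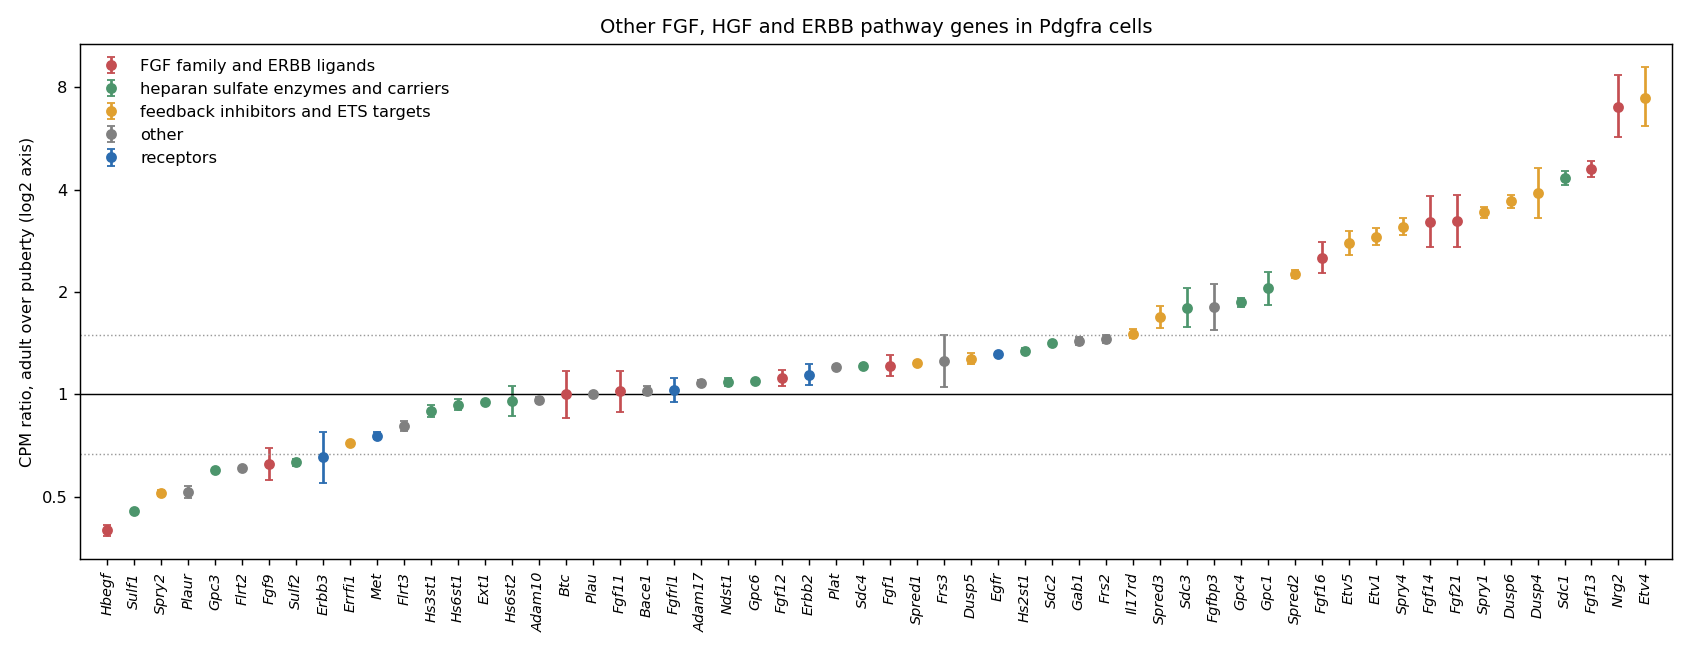
Ratio of adult over pubertal CPM (y axis, log2 scale) in all *Pdgfra* cells for the 58 other FGF, HGF and ERBB pathway genes with a mean of at least 1 CPM, ordered by ratio and coloured by role; bars are 95% counting intervals and dotted lines mark 1.5-fold. *Etv4* at 7.47 and *Nrg2* at 7.02 are highest and *Hbegf* at 0.399 and *Sulf1* at 0.453 lowest.

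Of 77 other genes listed for the FGF, HGF and ERBB pathways, 76 were in the gene list and 58 passed 1 CPM. Of these, 20 were at least 1.5-fold higher in the adult (34.5%, beside 16.7% of all genes) and 9 at least 1.5-fold lower (15.5%, beside 6.42%), with a median log2 ratio of 0.28. The count of higher genes was 9 when the exclusive subsets were weighted equally, where the share over all genes was 9.27%.

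Of the 6 genes named as known targets of FGF and MAP kinase signals, 5 were at least 1.5-fold higher in the adult, beside 16.7% of all genes. The 6 were chosen with earlier results known. Of the other feedback inhibitors and ETS factors of the list, *Dusp4* (3.91), *Etv1* (2.91), *Spred2* (2.26), *Spred3* (1.69) and *Il17rd* (1.51) also passed 1.5-fold upward. *Dusp5* (1.27), *Spred1* (1.24) and *Errfi1* (0.719) did not pass 1.5-fold either way. *Dusp6*, a phosphatase that switches off ERK, went from 9.65 to 35.7 CPM (ratio 3.70), the feedback inhibitor *Spry1* from 17.5 to 60.2 (3.43), *Spry4* from 7.15 to 22.3 (3.12), and the ETS factors *Etv5* from 3.60 to 10.0 (2.79) and *Etv4* from 0.482 to 3.60 (7.47). *Spry2* went the other way, from 112 to 57.9 CPM (0.515). *Dusp6* and *Etv4* were higher in the adult in 5 of 5 subsets beyond counting error, *Spry1*, *Spry4* and *Etv5* in 4 of 5, and *Spry2* was lower in 5 of 5. *Crabp1* cells had the highest levels of *Dusp6*, at 96.5 and 126 CPM, 11.95-fold and 5.73-fold the other cells, and of *Spry1*, at 136 and 146 CPM. *Spry4*, *Etv4* and *Etv5* were also highest there. *Spry2* was not, at 53.3 and 37.1 CPM, 0.470-fold and 0.607-fold the other cells. Among the subsets, these are the cells in which *Fgf2*, *Fgf18* and *Fgfr1* were lowest and *Hgf* and *Nrg1* highest at both stages. A relation between these levels was not tested.

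The other genes with the highest ratios were the neuregulin gene *Nrg2* (0.452 to 3.18 CPM, 7.02), *Fgf13*, an FGF homologue that stays inside the cell (6.62 to 30.4, 4.60), the heparan sulfate carrier *Sdc1* (9.32 to 40.4, 4.33) and the phosphatase *Dusp4* (0.744 to 2.91, 3.91). Those with the lowest were the EGF receptor ligand *Hbegf* (38.5 to 15.3, 0.399), *Sulf1*, which removes sulfate groups from heparan sulfate (1344 to 609, 0.453), the urokinase receptor *Plaur* (29.4 to 15.2, 0.516), the glypican *Gpc3* (704 to 421, 0.598) and *Flrt2* (707 to 430, 0.608). *Sulf1* was led by Pi16+Dpp4+ cells, at 1615 and 957 CPM.

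Of the receptors for HGF and neuregulin, *Met* was the one above 10 CPM in *Pdgfra* cells. *Met*, the HGF receptor, stood at 53.3 and 40.4 CPM (0.757) and was highest in Pi16+Dpp4+ cells (59.7 and 56.0) and lowest in *Crabp1* cells (19.6 and 19.5). For *Hgf* these ends were reversed, but the order between them was not. *Thbs4* or *Bmp5* cells stood near the low end for both genes, at 27.7 and 23.0 CPM of *Met* and 46.4 and 52.4 of *Hgf*. *Erbb3*, the receptor that binds neuregulin 1, stood at 1.40 and 0.917 CPM (0.654), *Erbb4* at 0.486 and 0.299, and their partner *Erbb2* at 6.04 and 6.90 (1.14). *Egfr*, the receptor of other EGF family ligands, stood at 1242 and 1632 CPM (1.31), while *Fgfr3* (0.435 and 0.517) and *Fgfr4* (0.342 and 0.230) were below 1 CPM.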

How the data were processed

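Stromal cells of 1 pubertal and 1 adult library were profiled with the 10x Genomics Chromium GEM-X 3′ kit per the labels. The authors deposited raw UMI counts per gene and barcode, made with Cell Ranger 8.0.1 against build mm10 per the submitters' processing notes, without normalization. The annotation is not given in the sources used here, so no coordinates are given for the counted genes. Kit, Cell Ranger version and pubertal age differ in the study's methods, and those of the labels and file headers were used.

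Counts were summed over cells and scaled to CPM with numpy 2.4.6 and scipy 1.17.1 under Python 3.11.15. Genes with a mean of at least 1 CPM were tested against a fold of 1.5. Sums have exact Poisson intervals, shares Clopper-Pearson intervals and ratios conditional binomial intervals, at 95%, and a share of 0 is given with the limit of 3 counts. Cells with at least 3000 UMIs were thinned to 3000 without replacement, leaving out 336 pubertal and 426 adult cells. Likeness was Pearson's r of log2(CPM + 1) over genes with a mean of at least 10 CPM. TMM factors came from edgeR 4.0.16. Doublets were not removed, since the choice of cells did not ask for it. As an alternative, the highest Scrublet scores (scanpy 1.11.5) were removed at 0.4% per 1000 barcodes, because Scrublet's own threshold marked almost none at puberty. The calculations were checked on simulated counts. Named beside the members are the 6 highest and 6 lowest pathway genes past 1.5-fold, the other receptors, 6 FGF target genes and the 3 genes most like each member. The other feedback inhibitors and ETS factors of the list are named beside the 6 target genes. The members, subsets and gene lists were chosen with earlier results of these data known. Other stages and replicates were not analysed here.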

Additional observations from a re-analysis of the deposited data

Results flagged for a closer look

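In cells of exactly 1 subset, 4 members had adult over puberty ratios that went opposite ways in different subsets. *Fgf7* had a ratio of 2.92 in cells of the *Crabp1* subset alone and 0.787 in cells of the *Gdf10* or *Fmo2* subset alone. *Hgf* had 4.06 in cells of the *Fabp4* subset alone and 0.439 in cells of the *Thbs4* or *Bmp5* subset alone. *Nrg1* had 2.20 in cells of the *Gdf10* or *Fmo2* subset alone and 0.296 in cells of the *Thbs4* or *Bmp5* subset alone. *Fgfr2* had 1.36 in cells of the *Crabp1* subset alone and 0.793 in cells of the *Thbs4* or *Bmp5* subset alone. Each interval lay wholly on 1 side of 1 for counting error, but with 1 library per stage the differences between subsets were not tested. The pubertal *Crabp1* subset alone held 100 cells, with 6 *Fgf7* UMIs in all.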

How the results depend on the processing

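The 8 member ratios were recomputed under 11 alternatives of scaling, cell weights and cell filters, 1 of them, the removal of cells with 3 markers of another type, chosen after seeing the data. *Fgf10* stayed between 1.68 and 2.02, *Hgf* between 1.25 and 2.15, *Fgf2* between 0.533 and 0.807, *Fgf18* between 0.506 and 0.761, *Fgfr1* between 0.487 and 0.697, *Fgf7* between 0.851 and 0.951 and *Fgfr2* between 1.06 and 1.24. *Nrg1* turned to 0.517 with equal weight for every exclusive subset and otherwise lay between 1.22 and 2.08. With equal weights 1 member (*Fgf10*) was at least 1.5-fold higher and 1 lower (*Nrg1*, higher as sampled), beside 9.27% and 6.20% of all genes. There 9 pathway genes were higher, and *Fgf2*, *Fgf18* and *Fgfr1* were inside 1.5-fold. Pubertal subset shares left 1 member lower (*Fgfr1*) and 4 pathway genes lower, beside 5.19% of all genes. A fold of 2 left 1 member higher, beside 6.28% of all genes, and 0 members and 2 pathway genes lower, beside 2.61%. No filter on low counts gave 15 pathway genes lower, beside 15.6% of all genes. With each subset marker at 2 UMIs, or with exclusive subsets, *Gdf10* or *Fmo2* cells were higher for 1 member and lower for 2, and *Thbs4* or *Bmp5* cells lower for 2. With exclusive subsets *Fabp4* cells were higher for *Fgf10* and *Nrg1* but not *Hgf*, Pi16+Dpp4+ cells no longer for *Fgfr1*, and *Crabp1* cells also for *Fgfr2*. The cause of these changes was not tested, except that a larger fold passes fewer genes and no filter admits more. No paired analysis was possible because each stage had 1 library, and for the same reason no replicate could be left out.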
